A study of Mus musculus with 37 samples.

Results

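Transcript levels of 10 genes of the epithelial-mesenchymal transition (EMT) were described in female BALB/c mice, in bladders and upper urinary tracts. The members were the rows of the deposited count table with the symbols Cdh1, Epcam, Cdh2, Vim, Fn1, Snai1, Snai2, Twist1, Zeb1 and Zeb2, 10 of 24421 gene symbols, and all 10 were found and passed the filter on low counts in each comparison. Values were whole transcriptome sequencing (WTS) values in CPM, the count of a gene relative to the summed counts of its library, on the usual per-million scale.

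The table held 37 libraries, from wild-type mice that drank tap water or 0.05% BBN, a nitrosamine carcinogen, from 6 to 7 weeks of age. The labels give 18 weeks of BBN and the methods 17 to 20 weeks. In mice given BBN, UT denotes the upper tract on the cancer side (11 libraries from 10 mice, mouse 5 with both sides), UN the noncancer side (7 libraries) and U the ureters of untreated mice (6 libraries, both ureters of 3 mice). BB denotes the bladder of BBN-treated mice (10 libraries) and B that of untreated mice (3 libraries). In 7 mice both UT and UN were sequenced. Each library held a piece of tissue with all its cell types, so that fewer cells of a type and less RNA per cell cannot be told apart, and p-values take the libraries as independent although some come from the same mouse.

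In EMT, epithelial cells lose the junctions that hold them in a sheet and take on properties of migrating mesenchymal cells. Cdh1 encodes E-cadherin, the adhesion molecule of epithelial junctions, and Epcam an adhesion molecule of the epithelial cell surface. Cdh2 encodes N-cadherin, Vim the intermediate filament protein vimentin and Fn1 the matrix protein fibronectin, which are common markers of mesenchymal cells. Snai1 and Snai2 (the Snail family), Zeb1 and Zeb2 (zinc finger homeobox proteins) and Twist1 (a basic helix-loop-helix protein) are transcription factors known to drive EMT, and the Snail and Zeb proteins repress Cdh1 through E-boxes in its promoter. In healthy tissue, fibroblasts, smooth muscle, endothelium and leukocytes also express many of the mesenchymal genes, and basal epithelial cells express Snai2.

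Total counts per library ranged from 3557697 to 18793560. The 4 libraries under 9000000 counts (UN 6, BB 1, BB 3 and BB 4) were also those of lowest RNA integrity in the study. UN 2 stood apart by its makeup, with a sum of 37.4 CPM over 12 urothelial markers against 911 to 14500 CPM in the other UN libraries and 1462 to 2867 CPM in U. UT 4 held 2818 CPM of 10 kidney tubule markers, against at most 13.2 CPM in the other UT libraries. Adipocyte markers (5 genes) summed to 40430 to 63440 CPM in U, 9401 to 56460 CPM in UN, 52.3 to 35700 CPM in UT and at most 4909 CPM in the bladders.

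On GRCm38 (GENCODE vM21), the epithelial genes were Cdh1 at chr8:106603351-106670246 (plus strand) and Epcam at chr17:87635979-87651129 (plus). The structural mesenchymal genes were Cdh2 at chr18:16588877-16809246 (minus), Vim at chr2:13573927-13582826 (plus) and Fn1 at chr1:71585520-71653200 (minus). The transcription factors were Snai1 at chr2:167538195-167542814 (plus), Snai2 at chr16:14705852-14709385 (plus), Twist1 at chr12:33957671-33959829 (plus), Zeb1 at chr18:5591860-5775467 (plus) and Zeb2 at chr2:44983632-45117395 (minus). Exons of Fn1 overlapped Apol7d, those of Zeb1 Gm10125 and those of Zeb2 Zeb2os and Mir5129. The library kit does not mark strand, so reads of these overlaps could not be assigned to one gene.

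Divided by the length of the longest coding transcript, levels per kilobase (kb) differed widely between the members. In U, Vim was first with a median of 115 CPM per kb, followed by Cdh1 with 31.1, Epcam with 14.2 and Fn1 with 12.6. In UT the order was Epcam with 297 CPM per kb, Cdh1 with 120, Vim with 81.6 and Fn1 with 18.3. Thus the untreated ureter had a mesenchymal filament gene at the head of the members, and UT both epithelial genes. Bladders had the epithelial genes high in both groups, with Cdh1 at a median of 163 CPM per kb in B and 175 in BB. The transcription factors had lower medians than Vim, Cdh1 and Epcam in every group. The highest of them was Snai2, with medians of 8.35 (U) to 27.4 (BB) CPM per kb, and Cdh2 had a median of at most 1.48 CPM per kb in any group.

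**Figure D1:**
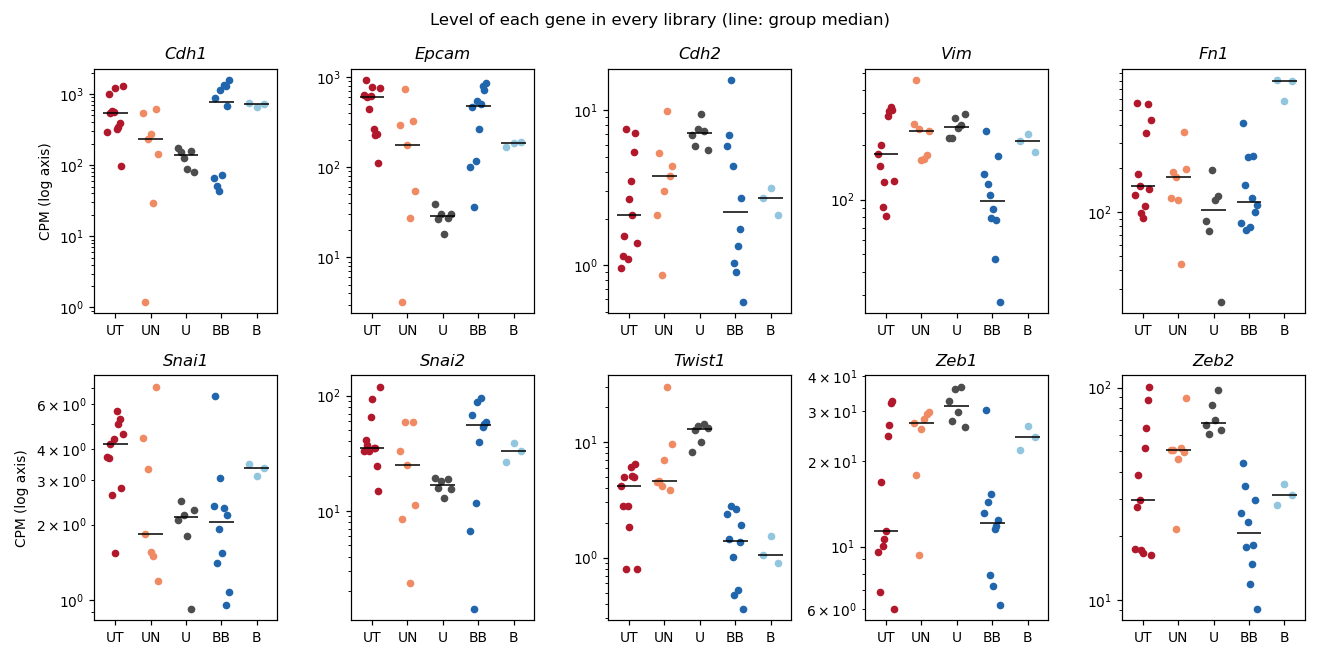
CPM of the 10 genes in each of the 37 libraries on log axes, by group (UT cancer side, UN noncancer side and U untreated ureter, BB and B bladder with and without BBN), with a line at the group median. Every UT library lies above every U library for Epcam, and UN 2 lies far below the other UN libraries for Cdh1 and Epcam.

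The comparison of UT with U addressed how the cancer side differed from ureter that had never met the carcinogen. Of the 10 members, 4 were higher in UT (Epcam, Cdh1, Snai2 and Fn1) and 4 were lower (Twist1, Cdh2, Zeb1 and Zeb2), by edgeR's quasi-likelihood test, where a call required an at least 2-fold change and an FDR below 0.1. Among all 15658 genes tested, 18.7% were called higher and 12.3% lower, so these shares stand against a broad background of change, and the median log2 fold change was 0.11 over all genes and 0.05 over the members.

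Epcam changed most among the members. It had 18.0, 29.0 and 39.0 CPM (lowest, median, highest) in U and 112, 605 and 935 CPM in UT. The groups did not overlap, and the lowest UT library, UT 9, lay above the highest of U. The log2 fold change was 3.88 ± 0.72 (SE), a 14.7-fold difference (edgeR, FDR = 0.000286). An exact permutation test over libraries (two-sided) gave p = 8.08e-05, the smallest that 11 against 6 libraries allow.

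The 250 bases before the annotated start of Epcam are shown because this member differed most, with the E-box letters that Snail and Zeb proteins are known to bind in capitals. The promoter of Snai1 is shown beside it as the other member with such a box. Both are from RefSeq on GRCm38.p6, plus strand, Epcam at chr17:87635729-87635978 and Snai1 at chr2:167537945-167538194. The letters searched were CACCTG and CAGGTG, which are each other's reverse complement, so that the search covers both strands.
Epcam: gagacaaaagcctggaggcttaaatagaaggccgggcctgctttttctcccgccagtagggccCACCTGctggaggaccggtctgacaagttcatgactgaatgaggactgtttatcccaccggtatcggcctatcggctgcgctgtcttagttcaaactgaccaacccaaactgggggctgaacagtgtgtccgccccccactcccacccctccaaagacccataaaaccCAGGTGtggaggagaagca
Snai1: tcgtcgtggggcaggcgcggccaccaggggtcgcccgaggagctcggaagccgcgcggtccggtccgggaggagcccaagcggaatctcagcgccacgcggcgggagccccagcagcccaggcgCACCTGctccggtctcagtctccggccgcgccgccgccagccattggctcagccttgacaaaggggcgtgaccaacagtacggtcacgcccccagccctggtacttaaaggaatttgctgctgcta
Epcam had 2 boxes, starting 187 and 19 bases before the start, and Snai1 had 1, starting 126 bases before it. Of the 27025 genes with a promoter in the table, 17.1% held at least 1 such box in the same window and 2.06% held 2 or more. The windows of Vim, Twist1 and Zeb2 (4 starts) held none, and the table had no entry for the other 5 members. A box is a match of letters only, and binding was not measured.

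Cdh1 had 79.5, 138 and 173 CPM in U and 98.4, 533 and 1317 CPM in UT. The groups overlapped through UT 9 alone, and the other 10 UT libraries (291 CPM and more) lay above all of U. The log2 fold change was 1.96 ± 0.65 (SE; edgeR, FDR = 0.018), 3.89-fold. Cdh1 thus rose by less than Epcam, and the ratio of Epcam to Cdh1 CPM was 0.236 ± 0.0779 (SD, n = 6) in U and 0.957 ± 0.465 (SD, n = 11) in UT, with ranges of 0.178 to 0.386 and 0.57 to 2.2 that did not overlap.

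Among the structural mesenchymal genes, Cdh2 fell and Fn1 rose. Cdh2 had 5.53, 7.14 and 9.42 CPM in U and 0.957, 2.1 and 7.63 CPM in UT, a log2 fold change of -1.47 ± 0.49 (SE; edgeR, FDR = 0.0188). Its highest UT value was in UT 4, the library with kidney tubule markers, and the second, 7.13 CPM, was in UT 9. Fn1 had 24.2, 104 and 196 CPM in U and 90.8, 152 and 558 CPM in UT, with overlapping groups and a log2 fold change of 1.02 ± 0.45 (SE; edgeR, FDR = 0.0699), at the edge of the 2-fold threshold. Vim, the most abundant of the 3 in U, had 219, 253 and 296 CPM there and 81.8, 179 and 322 CPM in UT, and was not called (log2 fold change -0.63 ± 0.31 (SE), edgeR FDR = 0.104).

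The transcription factors moved in both directions. Snai2 rose from 13.0, 16.9 and 19.2 CPM in U to 14.7, 35 and 120 CPM in UT, a log2 fold change of 1.24 ± 0.44 (SE; edgeR, FDR = 0.0261), and 10 of 11 UT libraries lay above all of U. Twist1 fell from 8.21, 13.0 and 14.3 CPM to 0.794, 4.19 and 6.46 CPM, with no overlap and a log2 fold change of -1.96 ± 0.51 (SE; edgeR, FDR = 0.00354). Zeb1 fell from 26.4, 31.2 and 36.7 CPM to 6.02, 11.3 and 32.6 CPM (log2 fold change -1.16 ± 0.33 (SE), edgeR FDR = 0.00643) and Zeb2 from 60.2, 68.2 and 97.4 CPM to 16.2, 29.7 and 101 CPM (-1.06 ± 0.37 (SE), edgeR FDR = 0.0244). Both overlapped U through a few UT libraries. Snai1, with at most 5.63 CPM in UT and 2.49 CPM in U, was 1.65-fold higher in UT and missed the fold threshold (edgeR, FDR = 0.0689).

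With RNA integrity as a covariate, 4 members were called in place of 8. Epcam, Cdh2, Twist1 and Zeb1 kept their calls, while Cdh1 (1.30 ± 0.74 (SE), edgeR FDR = 0.173), Snai2 (0.59, edgeR FDR = 0.300), Fn1 (0.70, edgeR FDR = 0.230) and Zeb2 (-0.98, edgeR FDR = 0.0328) did not. The call of Cdh1 was also lost when the mouse entered as a random effect (1.68, limma FDR = 0.145). The library codes of the study fell into an earlier and a later range. The later range held 3 UT, 1 UN and 3 BB libraries, and 0 of U and 0 of B. It held only BBN-treated libraries, so it cannot be fully told apart from BBN. The call of Fn1 was lost with library code range as a covariate (0.80, edgeR FDR = 0.155), by DESeq2, with RLE scaling and in both limma fits (0.91 to 0.99, under 2-fold), and without any single library of UT 2, 7, 8 and 10 and U 1, 2 and 6, and that of Zeb2 without UT 1, 5R, 5L or 10 or U 5, with log2 fold changes in those fits between 0.81 and 0.97 and between -0.98 and -0.97.

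**Figure D2:**
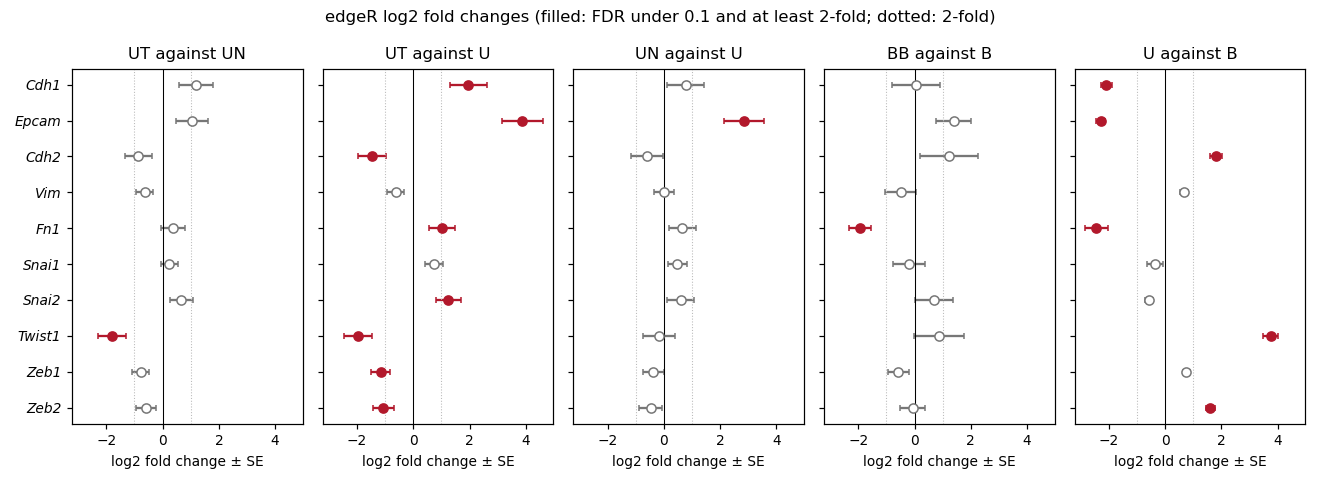
edgeR log2 fold changes with SE for the 10 genes in 5 comparisons, filled where the FDR was under 0.1 and the change at least 2-fold (dotted lines). UT against U has 8 filled points, U against B 6, and each of the others 1.

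The 11 UT libraries differed among themselves. Zeb1 was 24.6 to 32.6 CPM in UT 6, 7, 8 and 9, within or near the range of U, and 6.02 to 16.9 CPM in the other 7. The same 4 libraries had the highest Zeb2 (51.7 to 101 CPM, against at most 38.6 CPM) and the highest Vim (289 to 322 CPM, against at most 200 CPM) of UT. They had 98.4 to 387 CPM of Cdh1 and 112 to 267 CPM of Epcam, while the other 7 had at least 291 and 439 CPM. UT 10, at the other end, had the highest Cdh1 (1317 CPM) and Snai2 (120 CPM) and the lowest Zeb1 (6.02 CPM), Zeb2 (16.2 CPM) and Twist1 (0.794 CPM). Urothelial markers summed to 1066 to 5843 CPM in those 4 libraries and to at least 7338 CPM in the other 7, and immune markers (11 genes) to 672 to 1175 CPM in those 4 and 241 to 846 CPM in the others. The part of this makeup in the members' levels was not tested.

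The comparison of UT with UN addressed the difference between the cancer side and the noncancer side under the same carcinogen. Twist1 alone was called, lower in UT, and no member was called higher. Among all 15658 genes, 1.32% were called higher and 4.2% lower. Twist1 had 3.83, 4.57 and 29.9 CPM in UN against 0.794, 4.19 and 6.46 CPM in UT, a log2 fold change of -1.80 ± 0.50 (SE; edgeR, FDR = 0.0731). The medians lay close together and the groups overlapped, and UN 6, the shallowest UN library with 4675081 counts, held the value of 29.9 CPM.

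The call of Twist1 depended on single libraries. It was lost without any single one of UT 2, 5R, 5L and 10 and UN 2 and 6, with log2 fold changes of -1.91 to -1.68 in the first 5 of these fits and -0.75 without UN 6. Calls over all genes fell with it, from 864 to between 5 and 22 in these 6 fits. With UN 2 and UN 6 both left out, it was -0.73 ± 0.41 (SE; edgeR, FDR = 0.530), no member was called and 0 of 15757 genes were called (1558 with an unadjusted p under 0.05, edgeR). Beside Twist1, 7 of 10 smooth muscle markers were called lower in UT than in UN, and their sums were 416 to 7816 CPM in UN and 404 to 2833 CPM in UT. These marker calls were lost with the mouse as a random effect or replicate block and with only UT and UN fitted, where no gene was called lower. The part of the smooth muscle markers in the level of Twist1 was not tested.

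The epithelial members were higher in UT than in UN on average, but not past the threshold of the fit. Cdh1 had 1.19, 235 and 608 CPM in UN, with a log2 fold change of 1.19 ± 0.59 (SE; edgeR, FDR = 0.206), and Epcam had 3.2, 177 and 737 CPM in UN, with 1.04 ± 0.58 (SE; edgeR, FDR = 0.254). On log2(CPM + 1), the mean of each gene was higher in UT by 2.14, and the two-sided exact permutation test gave p = 0.0213 for Cdh1 and p = 0.014 for Epcam (11 against 7 libraries), with the lowest level of each gene in UN 2. Epcam was called higher in UT without UN 3, its highest UN library (log2 fold change 1.81). The other 7 members had log2 fold changes between -0.87 (Cdh2) and 0.65 (Snai2) and FDR between 0.137 (Zeb1) and 0.613 (Snai1) by edgeR.

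Within the 7 mice with both sides, no member moved the same way in every mouse. Epcam, Fn1, Snai1 and Snai2 were higher in UT in 5 of 7 mice and Cdh1 in 4 of 7, and Twist1 and Zeb1 were lower in 5 of 7. The difference of Cdh1 on log2(CPM + 1) ran from -0.88 (mouse 1) to 8.85 (mouse 2, whose UN library had the lowest sum of urothelial markers), with a median of 1.10. That of Zeb1 ran from -1.42 (mouse 1) to 0.79 (mouse 3). With the mouse as a replicate block, the log2 fold change of Twist1 was -1.03 ± 0.56 (SE; edgeR, FDR = 0.799), that of Cdh1 0.94 and that of Epcam 1.34, and no member was called.

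**Figure D3:**
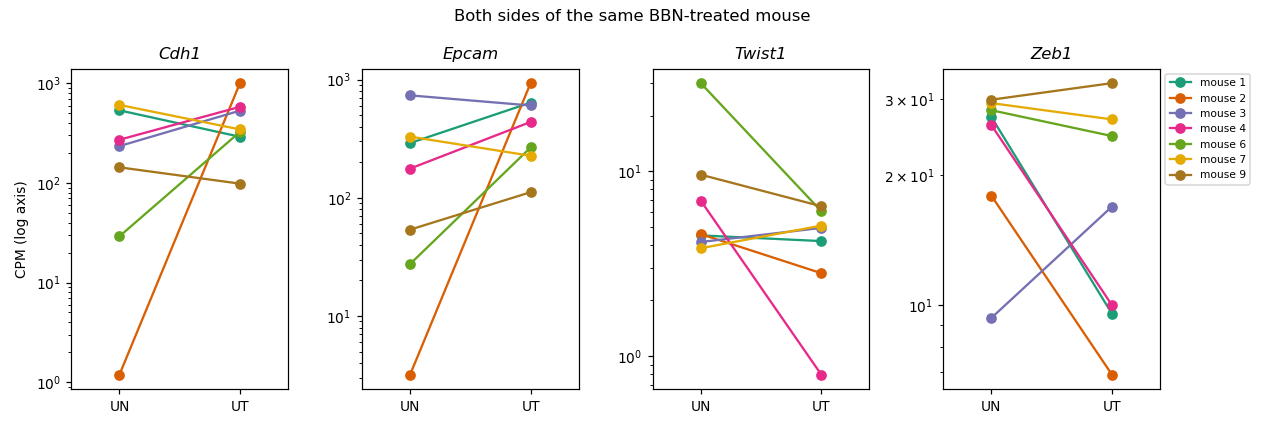
CPM on log axes of Cdh1, Epcam, Twist1 and Zeb1 on the UN and UT side of the 7 mice with both libraries, 1 line per mouse. Lines run in both directions for each gene, and the steep rise of Cdh1 and Epcam in mouse 2 starts from UN 2.

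The comparison of UN with U asked whether the noncancer side differed from untreated ureter. It shares U and UN with the comparisons above. Epcam alone was called, higher in UN (log2 fold change 2.84 ± 0.71 (SE), 7.14-fold, edgeR FDR = 0.0117), and no member was called lower. Of all genes, 12.5% were called higher and 1.21% lower (1950 and 189 genes). This split was 1451 and 793 genes by limma with weights per group, and 751 and 550 with a random effect for the mouse. In UN, 5 of 7 libraries (53.9 to 737 CPM) lay above all of U for Epcam, while UN 6 (27.6 CPM) lay within U and UN 2 (3.2 CPM) below it. On log2(CPM + 1) the groups did not differ beyond their spread (difference 1.75, two-sided exact permutation test, p = 0.123), and a random effect for the mouse removed the call (1.73, limma FDR = 0.180).

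With all 7 UN libraries, the edgeR fit called no other member, with log2 fold changes between -0.61 (Cdh2) and 0.77 (Cdh1) and FDR of at least 0.365 (edgeR). The limma fit with weights per group, over the same libraries, called Cdh2 (-1.34, FDR = 0.0325) and Twist1 (-1.13, FDR = 0.0524) lower beside Epcam, and limma with a random effect for the mouse called Cdh2 alone (-1.34, FDR = 0.0807). By library, 6 of 7 UN values of Cdh2 and of Zeb2 lay below all of U (two-sided exact permutation test on log2(CPM + 1), p = 0.0344 and p = 0.0338, differences of -0.82 and -0.58). For Twist1 5 of 7 did, with UN 6 at 29.9 CPM above all of U (exact permutation test, p = 0.118). Cdh1 and Vim turned direction with the test used. Cdh1 was at 0.77 in the edgeR fit and at -0.32 in the limma fit with weights per group, and Vim at 0.01 and -0.12. Without UN 2 and UN 6, Cdh1 (1.16, edgeR FDR = 0.0915) was called higher beside Epcam (3.23, edgeR FDR = 0.000796), and Cdh2 (-1.59, edgeR FDR = 0.0511) and Twist1 (-1.26, edgeR FDR = 0.0757) were called lower. Twist1 was also called when UN 6 alone was left out (-1.24).

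In the bladder, BBN-treated and untreated mice were compared to see whether the same genes differ in the lower tract. Fn1 alone was called, lower in BB, and no member was called higher, against 7.61% of 18050 genes called higher and 5.74% lower. Fn1 had 812, 582 and 801 CPM in B 1, B 2 and B 3 and 75.6, 118 and 410 CPM (lowest, median, highest) in BB. All 10 BB libraries lay below all of B (log2 fold change -1.94 ± 0.39 (SE), edgeR FDR = 0.00484, two-sided exact permutation test on log2(CPM + 1), p = 0.0035, the smallest that 10 against 3 libraries allow). The call held without BB 1, 3, 4 and 6 (-1.87 ± 0.38 (SE), edgeR FDR = 0.00453). Fibroblast markers (8 genes) summed to 6507 to 7659 CPM in B and 886 to 4660 CPM in BB, also without overlap, and 3 of the 8 were called lower. Their part in the level of Fn1 was not tested.

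The epithelial genes of BB were split. Cdh1 was 43.5 to 73.8 CPM in BB 1, 3, 4 and 6 and 676 to 1590 CPM in the other 6, against 655 to 738 CPM in B, and was not called (log2 fold change 0.06 ± 0.85 (SE), edgeR FDR = 0.973). BB 1, 3 and 4 are the shallow bladder libraries, and BB 6, of ordinary depth, is the bladder whose library name carries a T like those of UT. Urothelial markers summed to 1354 to 7697 CPM in these 4 libraries and to 10200 to 19150 CPM in the other 6. Epcam was 169, 188 and 193 CPM in B and 36.5, 484 and 866 CPM in BB, not called with all libraries (1.39 ± 0.63 (SE), edgeR FDR = 0.16), and called higher without the 3 shallow ones (1.75 ± 0.30 (SE), edgeR FDR = 0.002). Epcam was also called with RNA integrity as a covariate (1.72, edgeR FDR = 0.0237), without BB 3 alone (1.54) and by DESeq2 (1.43), whose calls in the bladder were 5799 against 2409 of edgeR. Snai2, with 26.3, 32.8 and 38.9 CPM in B and 1.4, 55.4 and 95.3 CPM in BB, was called higher without the shallow libraries (1.09 ± 0.26 (SE), edgeR FDR = 0.0121) and with RNA integrity as a covariate (1.05, edgeR FDR = 0.0962).

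The other bladder members did not pass. Zeb1 was 21.9, 24.3 and 26.6 CPM in B, and 9 of 10 BB libraries (6.2 to 15.3 CPM) lay below this, with BB 2 at 30.4 CPM (log2 fold change -0.57 ± 0.37 (SE), edgeR FDR = 0.308). Vim had 183, 210 and 229 CPM (lowest, median, highest) in B and 27.2, 98.0 and 238 CPM in BB (-0.49, edgeR FDR = 0.564). Cdh2 had a log2 fold change of 1.22 ± 1.04 (SE), which turned to -0.28 without the 3 shallow libraries, where BB 3 alone held 15.8 CPM.

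The change of Fn1 with BBN differed between the tissues. Fn1 was 1.57-fold higher in UN than in U (log2 fold change 0.65 ± 0.48 (SE), edgeR FDR = 0.375) and 3.83-fold lower in BB than in B. The difference of the 2 log2 fold changes was 2.57 ± 0.58 (SE; edgeR, FDR = 0.0204), and it was 2.36 to 2.81 when any single library was left out. No other member was called in this test, for which 1.51% of 18786 genes were called with a positive difference and 0.548% with a negative one. The difference for Epcam was 1.44 ± 0.97 (SE; edgeR, FDR = 0.578). In the same test, 4 of 30 mesenchymal matrix and adhesion genes and 1 of 8 fibroblast markers were called with a positive difference and none with a negative one, with medians of 1.25 and 1.46 against -0.0988 over all genes. Such a shift was not particular to these lists. Urothelial markers had a median of 2.11, with 2 of 12 called positive and 0 negative. Epithelial transcription and splicing factors had a median of 1.32, with 0 of 10 called. Fibroblast marker sums had medians of 9010 CPM in U, 5587 CPM in UN, 7556 CPM in B and 1726 CPM in BB. Gsn, the most abundant of these markers in U, had medians of 7234, 2830, 3915 and 875 CPM in the same order. Dcn had 947, 1412, 2257 and 826 CPM. The part of the markers in the difference of Fn1 was not tested.

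Untreated ureter and untreated bladder from the same 3 mice differed in 6 members. Cdh1, Epcam and Fn1 were lower in U, and Cdh2, Twist1 and Zeb2 were higher, against 14.3% of 15318 genes called lower and 15.7% higher. Twist1 differed most, with 1.05, 1.53 and 0.903 CPM in B and 8.21 to 14.3 CPM in U (log2 fold change 3.75 ± 0.27 (SE), 13.5-fold, edgeR FDR = 2.24e-07). Epcam was 4.9-fold lower in U (-2.29 ± 0.17 (SE), edgeR FDR = 2.77e-07) and Cdh1 4.25-fold lower (-2.09 ± 0.19 (SE), edgeR FDR = 1.98e-06). For these 6 members, and for Snai1 and Snai2, which were not called, no U library overlapped B. The two-sided exact permutation test gave p = 0.0119 for each of them, the smallest for 6 against 3 libraries. How many of all genes separated the groups in this way was not counted.

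Fn1 was 5.42-fold lower in U (-2.44 ± 0.40 (SE), edgeR FDR = 0.000236), Cdh2 3.5-fold higher (1.81 ± 0.22 (SE), edgeR FDR = 2.07e-05) and Zeb2 3.02-fold higher (1.6 ± 0.16 (SE), edgeR FDR = 2.82e-06). Vim, Zeb1 and Snai2 had FDR under 0.1 but changes under 2-fold (log2 fold changes 0.68, 0.76 and -0.59). With the mouse as a replicate block the same 6 members were called. The urothelial markers summed to 1462 to 2867 CPM in U and 20660 to 21180 CPM in B, smooth muscle markers (10 genes) to 2250 to 4109 and 10190 to 12180 CPM, and adipocyte markers to 40430 to 63440 and 440 to 2159 CPM. The part of this makeup in the members' differences was not tested.

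The order of the groups by median was as follows, and neighbours in it overlapped in range unless said otherwise. Epcam was highest in UT (605 CPM) and BB (484 CPM), followed by B (188 CPM) and UN (177 CPM), and lowest in U (29.0 CPM). Cdh1 ran from BB (775 CPM), B (724 CPM) and UT (533 CPM) to UN (235 CPM) and U (138 CPM). Snai2 had a similar order, from BB (55.4 CPM), UT (35 CPM) and B (32.8 CPM) to UN (25.2 CPM) and U (16.9 CPM).

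U was first for 5 other members. Twist1 went from U (13.0 CPM) through UN (4.57 CPM), UT (4.19 CPM) and BB (1.4 CPM) to B (1.05 CPM), and Cdh2 from U (7.14 CPM) through UN (3.77 CPM), B (2.72 CPM) and BB (2.22 CPM) to UT (2.1 CPM). Zeb1 went from U (31.2 CPM), UN (27.2 CPM) and B (24.3 CPM) to BB (12.1 CPM) and UT (11.3 CPM). Zeb2 (68.2, 50.5 and 31.3 CPM) and Vim (253, 240 and 210 CPM) had the same first 3 groups, followed by UT (29.7 and 179 CPM) and BB (20.7 and 98.0 CPM). Fn1 was highest in B (801 CPM), above every other library, with UN (175 CPM), UT (152 CPM), BB (118 CPM) and U (104 CPM) after it. Snai1 was highest in UT (4.17 CPM), then B (3.37 CPM), all of which lay above the next group U (2.13 CPM), then BB (2.05 CPM) and UN (1.83 CPM).

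How the members moved together was examined within groups, through the correlation of each with Cdh1 on log2(CPM + 1). In UT, with the sides of mouse 5 averaged (n = 10 mice), Cdh1 correlated with Snai2 (Pearson r = 0.856, permutation p = 0.00212, adjusted p = 0.0286 over 27 relations) and Epcam (r = 0.848, permutation p = 0.0018, adjusted p = 0.0286). It correlated inversely with Zeb1 (r = -0.77, permutation p = 0.0067, adjusted p = 0.0452). Spearman's rho was 0.745 for Snai2 (permutation p = 0.0171), 0.758 for Epcam (permutation p = 0.0141) and -0.685 for Zeb1 (permutation p = 0.0363), with adjusted p of 0.0923, 0.0923 and 0.12 in the same order. Without mice 9 and 10, the extremes of Cdh1, r was 0.61, 0.686 and -0.627.

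By Pearson's r, the other relations in UT did not pass the adjustment. Pearson's r with Cdh1 was -0.732 for Twist1 (permutation p = 0.014, adjusted p = 0.0686), which had the rho farthest from 0 (-0.83, permutation p = 0.00433, adjusted p = 0.0923), -0.714 for Zeb2 (permutation p = 0.0178, adjusted p = 0.0686), -0.696 for Vim (permutation p = 0.0217, adjusted p = 0.0732) and -0.519 for Cdh2 (permutation p = 0.124, adjusted p = 0.239). Snai1 (r = 0.0487, permutation p = 0.898) and Fn1 (r = 0.366, permutation p = 0.305) had adjusted p of 0.898 and 0.434. In UT, Cdh1 also rose with the summed urothelial markers (r = 0.806 over 11 libraries) and Zeb1 with the fibroblast (0.854) and endothelial (0.895) sums, given as descriptions, since these sums share their libraries with the members. Among the marker lists, Cdh1 had its highest r in UT with the mesothelial sum (0.896). For Zeb1, r with the fibroblast and endothelial sums was 0.177 and 0.314 in UN, and 0.716 and 0.826 in BB.

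In UN (n = 7), Epcam passed (r = 0.925, exact permutation p = 0.00456, adjusted p = 0.0411; rho = 0.786, exact permutation p = 0.048, adjusted p = 0.13), and r was 0.516 without mice 2 and 6, so the relation rested on them. Over the 7 UN libraries, Epcam and Cdh1 also had r of 0.986 and 0.947 with the summed urothelial markers, again as descriptions. The BB libraries fell into separate ranges of Cdh1, so only the 6 in the upper range were used, and none of the 9 relations passed (lowest adjusted p = 0.0686 for Vim, r = -0.905, exact permutation p = 0.0153; rho = -0.943, exact permutation p = 0.0167, adjusted p = 0.0923).

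**Figure D4:**
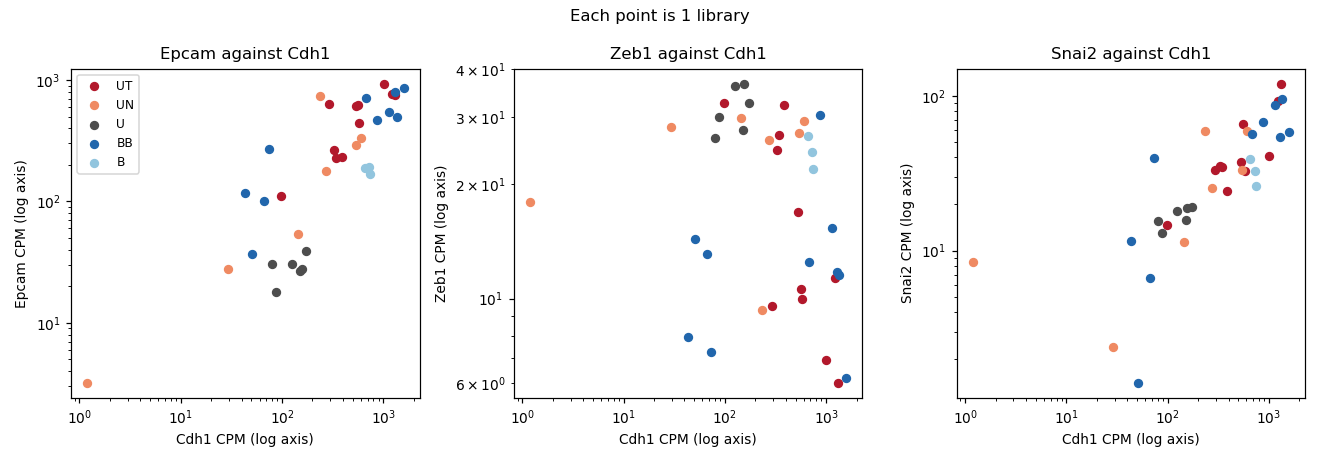
Epcam, Zeb1 and Snai2 against Cdh1 in CPM on log axes, 1 point per library coloured by group. Within UT, Epcam and Snai2 rise and Zeb1 falls as Cdh1 rises, and U forms a tight cluster of low Epcam and high Zeb1.

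Over all 37 libraries, as a description that includes the differences between the groups, Zeb1 and Zeb2 were the most alike pair of members (r = 0.898), followed by Cdh1 with Epcam (0.835) and Vim with Zeb2 (0.802). Among 10576 other genes with a mean of at least 10 CPM, Epcam was most like Cldn7 (r = 0.971), a tight junction claudin, and Mboat1 (0.965). Cdh1 was most like Arhgef5 (0.973), Cep170b and Emp2 (0.96 each), and Snai2 like Sfr1 (0.952), Rsl1d1 (0.95) and Dcun1d1 (0.948). Fn1 was most like the collagen genes Col1a1 (0.815) and Col1a2 (0.812) and the procollagen peptidase Adamts2 (0.799). Snai1 had the weakest neighbours, Col12a1 (0.733), Cxcl14 (0.707) and Bgn (0.687).

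The mesenchymal factors had neighbours of their own. Zeb1 was most like Nhsl2 (0.916), Ddr2 (0.913), a collagen receptor, and Ppap2b (0.907), Zeb2 like Rnf144a (0.92), Angpt1 (0.907) and Klhl13 (0.905), and Vim like Fkbp7 (0.863), Fam198b (0.824) and Cd302 (0.818). Twist1 was most like Ap3s1 (0.907), Sycp3 (0.903) and Arxes2 (0.9). For Cdh2, r was 0.82 with Slc16a10 and 0.797 with Vps13c.

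Other genes of the pathway were taken from lists. Of 29 genes of epithelial adhesion and polarity, 27 were higher in UT than in U, none lower and 2 not called (Tjp1 and Krt18), with a median log2 fold change of 2.23 against 0.11 over all genes. The most abundant were the keratins Krt19 (median 329 CPM in U and 1321 CPM in UT, log2 fold change 1.91, edgeR FDR = 0.0171) and Krt8 (258 and 573 CPM, 1.25, edgeR FDR = 0.0773). The largest differences were in the claudin Cldn3, from a median of 0.136 CPM in U to 36.4 CPM in UT (7.39, edgeR FDR = 2.32e-05), and in Cdh3, which encodes P-cadherin, from 1.8 to 22.4 CPM (3.94, edgeR FDR = 0.000106). Against UN, 0 of the 29 were called by edgeR, with a median of 0.83. In UN against U 15 were higher and none lower, against 12.5% and 1.21% of all genes.

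Of 10 epithelial transcription and splicing factors, 7 were higher in UT than in U and none lower, with a median of 2.23. Elf3, an epithelial ETS factor, had medians of 36.9 CPM in U and 440 CPM in UT (3.23, edgeR FDR = 0.000463), Ehf, another ETS factor, 34.6 and 200 CPM (2.40, edgeR FDR = 0.00292), and Ovol1, a zinc finger factor known to oppose EMT, 3.64 and 15.2 CPM (2.63, edgeR FDR = 0.00173). All 10 were lower in untreated ureter than in untreated bladder (median -2.55), against 14.3% of all genes.

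Of 30 genes of mesenchymal matrix and adhesion, 17 were higher in UT than in U, none were lower and 13 were not called, with a median of 1.11. Over all genes, 18.7% were called higher and 12.3% lower, with a median of 0.11. Ctgf, a matricellular growth factor, rose from a median of 16.3 to 316 CPM (3.82, edgeR FDR = 4.25e-05). The most abundant members of the list were not called, the collagen Col3a1 with medians of 733 and 971 CPM (0.41, edgeR FDR = 0.567) and Sparc, a collagen-binding protein, with 692 and 799 CPM (-0.12, edgeR FDR = 0.821). In BB against B, 1 was higher and 10 were lower (median -0.64), against 7.61% and 5.74% of all genes (median 0.246).

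Of 14 other EMT transcription factors tested, 3 were higher in UT than in U, 2 were lower and 9 were not called, shares near the 18.7% and 12.3% of all genes. Hmga2, a chromatin protein, had medians of 0.473 and 1.75 CPM (3.31, edgeR FDR = 0.0111), with 38.8 CPM in its highest UT library, and Snai3 0.249 and 1.39 CPM (2.68, edgeR FDR = 0.0108). Foxq1 and Tbx3, the most abundant, were not called (-0.10, edgeR FDR = 0.879 and 0.33, edgeR FDR = 0.553). Of 15 genes of the TGF-beta pathway, an inducer of EMT, 4 were higher, 1 was lower and 10 were not called. Skil, a feedback inhibitor of SMAD signalling, rose from 13.0 to 62.3 CPM (2.25, edgeR FDR = 2.13e-05) and Ltbp1, which holds latent TGF-beta in the matrix, from 52.5 to 124 CPM (1.46, edgeR FDR = 0.0134). The receptor Tgfbr2 had 151 and 235 CPM (0.50, edgeR FDR = 0.0594).

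**Figure D5:**
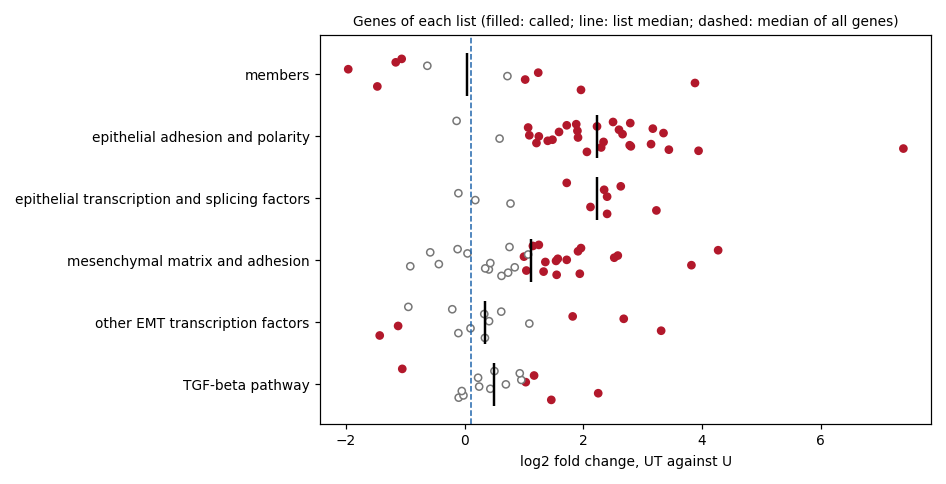
edgeR log2 fold change of UT against U for each gene of 6 lists, filled where called, with a line at each list's median and a dashed line at the median of all genes tested (0.11). Filled points of the epithelial lists lie only to the right, and the members fall on both sides.

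Cell type markers were counted in the same comparison, in which 18.7% of all genes were called higher and 12.3% lower. Of 12 urothelial markers, 5 were higher in UT than in U and 3 lower, and of 11 immune markers 8 were higher. Of 10 smooth muscle markers 8 were lower, of 8 nerve and Schwann cell markers 5 and of 5 adipocyte markers all 5, and none of these lists had a higher gene. The fibroblast and endothelial lists had 1 lower gene each (Gsn of 8 and Kdr of 6), a share near that of all genes. All 6 kidney tubule markers tested were called higher in UT. The sum of all 10 kidney tubule markers was 2818 CPM in UT 4, at most 13.2 CPM in the other UT libraries and at most 11.65 CPM in U. Of 4 mesothelial markers, Msln rose (5.0, edgeR FDR = 0.00022) and 2 fell.

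Examples of these lists show the sizes. Krt14 and Krt15, basal keratins, rose from medians of 7.91 and 15.8 CPM to 1405 and 1515 CPM (7.5, edgeR FDR = 4.87e-05 and 6.66, edgeR FDR = 0.00015). The uroplakins Upk1a (-4.37, edgeR FDR = 9.4e-05) and Upk2 (-1.98, edgeR FDR = 0.0193), proteins of the superficial urothelial cells, and the superficial keratin Krt20 (-1.10, edgeR FDR = 0.0883) fell, while the uroplakins Upk1b (-0.52, edgeR FDR = 0.469) and Upk3a (-0.74, edgeR FDR = 0.435) were not called. The genes that fell were named after their values were seen. Myh11, smooth muscle myosin, fell from 832 to 97.2 CPM (-2.98, edgeR FDR = 0.00298), Mylk from 522 to 58.4 CPM (-2.87, edgeR FDR = 0.000235) and Adipoq, adiponectin, from 3201 to 633 CPM (-2.67, edgeR FDR = 0.0152). Of the macrophage genes, Cd68 rose from 21.0 to 99.7 CPM (1.80, edgeR FDR = 0.00103), while Csf1r (71.1 and 113 CPM, 0.66, edgeR FDR = 0.158) and Adgre1 (0.38, edgeR FDR = 0.514) were not called. Fibroblast sums were 6709 to 10080 CPM in U and 543 to 7429 CPM in UT, and endothelial sums 197 to 465 CPM and 99.1 to 664 CPM. Gsn, the only fibroblast marker called, was the most abundant of them in U. It had medians of 7234 CPM in U and 1261 CPM in UT (-2.25, edgeR FDR = 0.00118). Dcn had 947 and 1248 CPM and was not called (-0.09, edgeR FDR = 0.893). The urothelial sum had a median of 2383 CPM in U and 7870 CPM in UT, and 10 of 11 UT libraries lay above all of U, with UT 9 (1066 CPM) below, the library that also lay within U for Cdh1 and Snai2. The part of these sums in the levels of the 10 members was not tested.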

How the data were processed

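RNA of 37 tissue samples was sequenced with an unstranded SMARTer and Nextera XT protocol, and the submitters' processing notes name TopHat2 2.1.1 and Cuffdiff 2.2.1 and the build GRCm38 (mm10), with no roles given. The authors deposited estimated counts per gene symbol (24421 symbols, 21.1% of nonzero values fractional), which were rounded to whole numbers here. Columns of samples outside the labels numbered 0.

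Groups came from the sample titles. edgeR 4.0.16 (R 4.3.3) fitted quasi-likelihood models with TMM scaling and filterByExpr to UT, UN and U together, to BB and B, to U and B, and to UN, U, BB and B for the difference of BBN effects between tissues. The groups of a fit shared an estimate of spread, although their own spreads differed. The common dispersion was 0.352 in UT, 0.39 in UN, 0.0363 in U, 0.608 in BB and 0.0232 in B. A gene was called at an FDR (Benjamini-Hochberg over all genes) under 0.1 and at least 2-fold. Alternatives used DESeq2 1.42.0 and limma 3.58.1. Exact permutation tests and correlations used log2(CPM + 1) in Python 3.11.15 with scipy 1.17.1. Correlations over 10 mice used 100000 resamples. In BB the correlation was restricted to the 6 libraries in the upper range of Cdh1, which departs from the plan.

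The members and gene lists were chosen with earlier results of these data known. From each list the text names the most abundant genes and those of largest change, and a few genes that the naming rules select are not reported here. The fits were tested on simulated counts with the same spread in every group, unlike these data, so recovery in the data may differ. Of 100 genes changed 3-fold, 99 were recovered for UT against UN and 84 for BB against B. For U against B it was 70, and for the difference between tissues 39. Replicate numbers of UT and UN name the same mouse, and deviations of the 7 pairs correlated with a median of -0.0114, against -0.00195 for other pairs. For the 6 ureter and bladder pairs of the same mouse it was -0.0374. No 2 libraries of a group differed by as little as sampling noise (lowest chi-square per degree of freedom 7.37). The lowest count of a member in any library was 5.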

Additional observations from a re-analysis of the deposited data

Results flagged for a closer look

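In groups of 4 to 10 libraries, 6 of 30 gene and group combinations held a library far from the others by Dixon's test on CPM. Chance gives about 5% for normally distributed values, which was not checked here, and the combinations share libraries. Each flagged value was the highest of its group. BB 2 stood out for Fn1 (410 CPM, next 242 CPM), Snai1 (6.46 CPM, next 3.07 CPM) and Zeb1 (30.4 CPM, next 15.3 CPM). BB 3, a shallow library, stood out for Cdh2 (15.8 CPM, next 6.91 CPM). In UN, Vim was 459 CPM in UN 2 (next 261 CPM), the library with the lowest urothelial markers, and Twist1 was 29.9 CPM in UN 6 (next 9.58 CPM), the shallowest UN library.

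The effect of BBN on Fn1 differed between upper tract and bladder, with a difference of log2 fold changes of 2.57 (edgeR, FDR = 0.0204).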

How the results depend on the processing

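No call changed among the alternatives for U against B (6 members) and for the difference between tissues (Fn1). For UT against UN, 1 member was called with all libraries and 0 by limma with weights per group, with RNA integrity as a covariate, with only the groups compared, with a random effect or a replicate block for the mouse, without UN 6 and without UN 2 and UN 6, and 2 by the exact permutation test. The calls over all genes went from 864 to 0 in 5 of these, to 2 with the random effect and to 6 without UN 6, and to 1391 by DESeq2, 1390 with no filter and 1683 without UT 9. They also went to 7, 22, 5, 15 and 19 without UT 2, UT 5R, UT 5L, UT 10 or UN 2, to 562 and 571 without UT 3 or UT 4, and to 1779 and 1854 without UN 3 or UN 7. At an unadjusted p under 0.05, the replicate block gave 623 of 14869 genes (edgeR). The block kept the 6 calls of U against B. For UT against U, RNA integrity as a covariate left 4 of 8 members, a random effect for the mouse 6 (without Cdh1 and Fn1), and DESeq2, RLE scaling, limma with weights and library code range 7 each (without Fn1). For UN against U, 3 were called by limma with weights, 2 without UN 6, 4 without UN 2 and UN 6 and 0 by the permutation test, and all-gene calls went from 2139 to 1301 with the random effect. Of all calls, the share higher was 91.2% there by edgeR, 64.7% by limma with weights and 57.7% with the random effect. For UT against U it was 60.3% by edgeR and 49.6% with the random effect, for BB against B 57.0% and 80.1% (DESeq2), and between tissues 73.4%, 49.0% (DESeq2) and 60.4% (limma). For BB against B, 2 were called by DESeq2 and 3 with RNA integrity, without the 3 shallow libraries and without BB 1, 3, 4 and 6, and all-gene calls went from 2409 to 5799 (DESeq2) and 5670 (limma), and to 1024, 1075 and 1039 without B 1, B 2 or B 3. For the difference between tissues, all-gene calls went from 387 to 926 (DESeq2), 1819 (limma), 718 (RNA integrity), 590 (without UN 6), 815 (without shallow BB), 949 (without UN 2 and UN 6) and 1122 (without BB 1, 3, 4 and 6), and to 149, 186, 149 and 251 without B 1, B 2, B 3 or U 4. The settings without UN 2 and UN 6 and without BB 1, 3, 4 and 6 were chosen after seeing the data.

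With single libraries left out, members called ranged from 0 to 2 (UT against UN), 6 to 8 (UT against U), 1 to 2 (UN against U) and 1 to 2 (BB against B). Log2 fold changes that turned sign there ranged from -0.34 to 0.12 for Vim and -1.24 to 0.0163 for Twist1 (UN against U), -0.15 to 0.20 for Cdh1 and -0.20 to 0.0896 for Zeb2 (BB against B), and -0.46 to 0.078 for Snai2 and -0.0128 to 0.31 for Zeb1 (between tissues).

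Other reversals concerned members that were not called, and the cause was not tested. For UT against UN, Fn1 was -0.0188 with RNA integrity and Cdh2 0.0856 without UN 2 and UN 6. For UN against U, Vim was -0.0318 (DESeq2), -0.0318 (RLE), -0.0608 (no filter), -0.12 (limma with weights), -0.0823 (RNA integrity), -0.0509 (without UT 9), -0.0198 (only the groups compared), -0.034 (library code range), -0.15 (random effect), -0.0545 (without UN 6), -0.46 (without UN 2 and UN 6) and -0.13 (permutation test), and Cdh1 -0.32 (limma with weights), -0.30 (random effect) and -0.17 (permutation test). For BB against B, Zeb2 was 0.0899 (DESeq2), 0.0867 (RLE) and 0.032 (mean CPM of at least 1), Cdh1 -0.94 (limma) and -1.05 (permutation test), Cdh2 -0.24 (limma), -0.21 (RNA integrity), -0.28 (without shallow BB) and -0.21 (without BB 1, 3, 4 and 6), Twist1 -0.22 (the same) and Snai2 -0.0665 (permutation test). Between tissues, Snai2 was 0.078 and Zeb1 -0.0128 without UN 6, Snai2 0.25 and Zeb1 -0.0148 without UN 2 and UN 6, and Zeb2 0.0037 without shallow BB. The correlation of Cdh1 turned to -0.634 with Snai1 in UT and to -0.454 with Snai2 in BB without the 2 farthest libraries.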
